A study of Mus musculus with 18 samples.

Results

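miR-210, the microRNA (miRNA) best known as a hypoxia marker, was followed in mouse NIH/3T3 fibroblasts through its 2 mature arms, mmu-miR-210-3p and mmu-miR-210-5p, out of 1907 mature miRNAs listed and 1232 with any read. The members were chosen by name, with their mapped reads summed over the 6 groups. Those sums were 47037.2 reads for the 3p arm and 838.8 for the 5p arm, and they describe the members only. Small RNAs were sequenced before (input) and after capture (IP) by an antibody that recognises pseudouridine (Ψ), an isomer of uridine. The compared states were wild type (WT) and knockdown of Pus1, which encodes a Ψ synthase, for 3 days (KD3) or 6 days (KD6), and the study's own supplement calls the treatment an siRNA. The WT cells are the reference for both knockdown times, and a control siRNA is not mentioned in the sources used here. All 6 groups are 1 established cell line in the same medium, with 3 libraries each (replicates A, B and C), 18 in all. The labels do not say that the replicates were separate cultures, so p-values measure only the spread between these libraries, which may be technical. No group was labelled as hypoxic.

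Transcription of miR-210 is induced by hypoxia-inducible factors when oxygen falls, and it is among the miRNAs most often reported to respond to low oxygen. Its guide strand is the 3p arm, which is loaded into Argonaute and represses targets that include the iron-sulfur cluster scaffold ISCU, thereby lowering mitochondrial respiration. The 5p arm is the passenger strand and is normally degraded after the duplex is unwound.

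The sequences of the hairpin and its arms show how unlike the 2 strands are in base composition. In GRCm38.p6 the hairpin lies on the minus strand of chromosome 7, from 141221384 to 141221493. It overlaps no other gene in GENCODE M21, and lies 2726 bp from Rassf7 and 7291 bp from Phrf1, both on the plus strand. The RefSeq hairpin is shown from 5′ to 3′ with the 5p arm (bases 28 to 49) and then the 3p arm (bases 66 to 87) in capitals.
Mir210 hairpin: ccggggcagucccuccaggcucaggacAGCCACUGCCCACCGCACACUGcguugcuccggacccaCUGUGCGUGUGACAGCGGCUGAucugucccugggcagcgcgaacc
The mature strands from RefSeq are shown with the seed, bases 2 to 8 from the 5′ end, in capitals.
miR-210-3p (chr7:141221407-141221428): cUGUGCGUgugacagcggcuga
miR-210-5p (chr7:141221445-141221466): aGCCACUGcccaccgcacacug

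Both strands are 22 nt long. The 3p arm has 5 uridines, at positions 2, 4, 8, 10 and 20, of which the first 3 lie in the seed. The 5p arm has 2 uridines, at positions 7 and 21. Uridine is the only base that can be turned into Ψ, and the median miRNA tested with a known sequence had 6. The 3p arm had a GC content of 63.6% and the 5p arm 68.2%, against a median of 50% over 462 miRNAs tested whose sequence was found. Neither seed occurs in any other of the 1679 mature mouse miRNAs of the reference. Each arm has a single row in the table.

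Total mapped reads ranged from 3989031 to 15099781 in 17 libraries and were 241109 in replicate A of the KD6 input, which stands apart for its low depth. Reads outside the miRNA rows made up 5.60% to 9.66% of mapped reads in the 3 input groups and 16.8% to 32.4% in the 3 IP groups, as group means. The table holds miRNAs only, so Pus1 mRNA, which would check the knockdown, and mRNA markers of fibroblasts were not analysed here.

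In the inputs miR-210-3p was a miRNA of intermediate abundance. Its levels are given in CPM, the unit of depth-scaled counts, with each library's effective size set by the TMM method. Replicates A, B and C contained 574, 545 and 658 CPM in WT input, 735, 667 and 721 CPM in KD3 input, and 581, 632 and 620 CPM in KD6 input. On this scale each KD3 input lay above every WT and KD6 input, and WT and KD6 inputs overlapped. The mean in WT input, 592 ± 58.7 CPM (SD, n = 3), ranked 89 among the 1047 miRNAs with reads in that group.

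After the IP, the level of the guide strand relative to the other miRNA reads was much lower. Replicates A, B and C contained 18.8, 18.5 and 17.0 CPM of miR-210-3p in WT IP, 29.8, 23.8 and 22.9 CPM in KD3 IP, and 16.5, 14.8 and 20.1 CPM in KD6 IP. All 9 IP libraries lay far below all 9 inputs, and on this scale each KD3 IP library lay above every WT and KD6 IP library. IP levels were not tested between conditions. How often IP libraries separated in this way over all miRNAs was not computed. The IP values rested on 33 to 137 mapped reads per library, against 3535.5 to 8619.3 in the 8 deeper inputs and 143 in replicate A of the KD6 input. The order of mean levels was KD3 input, KD6 input, WT input, KD3 IP, WT IP and KD6 IP, and libraries of neighbours in this order overlapped for KD6 and WT input and for WT and KD6 IP.

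The passenger strand was rare before the IP and changed less during it. Replicates A, B and C contained 16.0, 14.1 and 11.1 CPM of miR-210-5p in WT input, and 11.3, 8.0 and 4.65 CPM in WT IP. In KD3 they contained 7.91, 9.80 and 5.54 CPM in input, and 6.86, 2.80 and 4.21 CPM in IP. The input and IP libraries overlapped in both conditions, so nothing like the separation of the guide strand was seen.

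In KD6 the passenger strand was close to the limit of detection. Mapped reads in replicates A, B and C were 0, 17 and 47 in KD6 input and 0, 0 and 3 in KD6 IP. A count of 0 allows up to 3 counts, which is 12.2 CPM in replicate A of the KD6 input, above the mean of every group but WT input, so that library carries no information on this arm. In replicates A and B of the KD6 IP it is 1.10 and 1.34 CPM. The order of mean levels for the 5p arm was WT input, WT IP, KD3 input, KD3 IP, KD6 input and KD6 IP, and every neighbouring pair in this order overlapped when a count of 0 is taken as 0. These limits and the intervals given for shares cover counting error only, since no source used here describes molecular identifiers that would separate PCR copies.

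**Figure D1:**
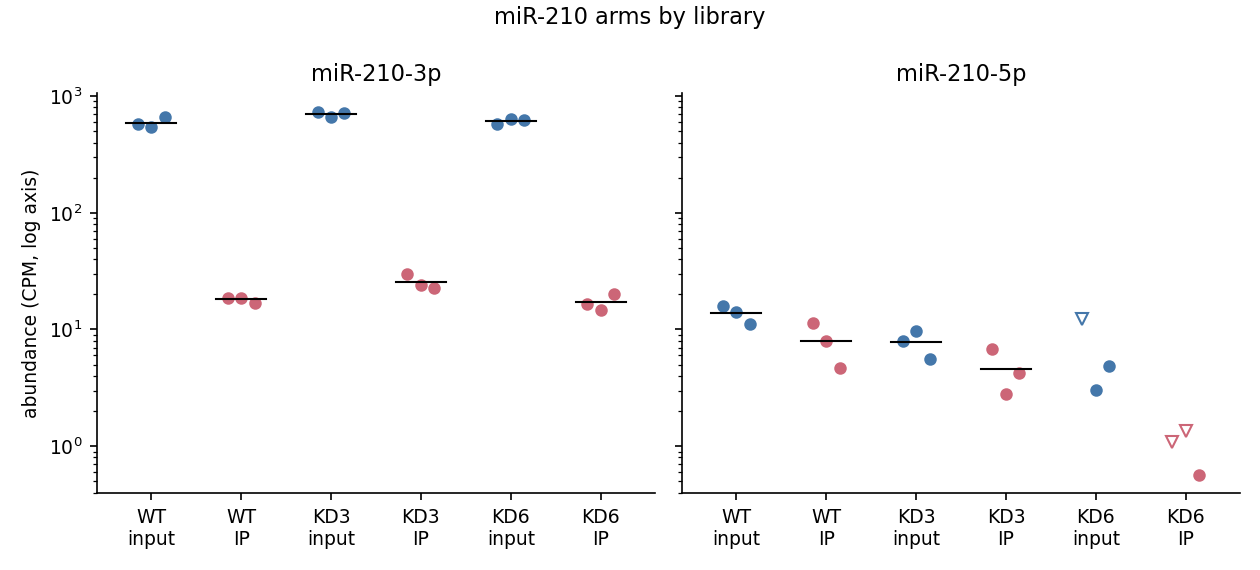
Abundance of miR-210-3p (left) and miR-210-5p (right) in each of the 18 libraries, in CPM on a log axis, inputs in blue and IP in red. Points are replicates A, B and C from left to right, lines are group means (drawn where all 3 libraries have reads), and open triangles mark libraries with 0 reads at the level that 3 counts would give. The 3p arm lay between 545 and 735 CPM in input and between 14.8 and 29.8 CPM in IP, whereas the 5p arm overlapped between input and IP in WT and KD3.

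The number of distinct read sequences behind each value, deposited beside the mapped reads, was also lower after the IP. The 8 deeper inputs held 120.5 to 209.6 distinct sequences of miR-210-3p, and the IP libraries held 9 to 29. Replicate A of the KD6 input had 143 reads in 16 distinct sequences, and replicate C of the KD3 IP had 137 reads in 29. All 3 reads of miR-210-5p in the KD6 IP were of 1 sequence.

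The comparison of IP with input asks which miRNAs were retained in the IP with the Ψ antibody. None of the 18 libraries is labelled as an IP with a control antibody. The ratio to input therefore does not by itself show whether a miRNA carries Ψ. In WT, miR-210-3p was 32.8-fold lower in IP, a log2 ratio of −5.04 ± 0.21 (SE, adjusted p = 3.21e-14, edgeR quasi-likelihood, Benjamini-Hochberg over 534 miRNAs, n = 3). In KD3 it was 27.7-fold lower, at −4.79 ± 0.21 (SE, adjusted p = 7.13e-14, same test). In KD6 the ratio was −5.15 ± 0.22 (SE), given without a p because this ratio was already known when the members were chosen. Input and IP libraries of miR-210-3p did not overlap in any condition, as was so for 73.2%, 74.2% and 59.2% of miRNAs in WT, KD3 and KD6. Of the 534 miRNAs, 66.7% passed the threshold in WT, 67% in KD3 and 68.7% in KD6, and 40.4%, 39% and 37.6% did so as lower in IP. A call is thus common here. By size, miR-210-3p had the 33rd lowest ratio of the 534 in WT, the 39th in KD3 and the 43rd in KD6. The medians of all miRNAs were −0.35, −0.25 and −0.28, and relative to them the ratio of miR-210-3p was −4.69, −4.54 and −4.86.

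Where the median of all miRNAs falls depends on the scaling. In WT it was −0.02 with DESeq2-style RLE factors and 0.34 when the smallest library served as the TMM reference, and the share of calls that were higher in IP was then 46.6% and 56.7%, against 39.3% here. In KD3 that share was 41.9%, and 54.1% with the smallest library as reference. In KD6 it was 45.2%, and 27.7% with total mapped reads as library size. The ratio of miR-210-3p relative to the median stayed between −5.60 and −4.52 over all the settings that kept every library, in the 3 conditions.

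The passenger strand gave another result. In WT the log2 ratio of miR-210-5p was −0.80 ± 0.41 (SE, adjusted p = 0.0879, edgeR quasi-likelihood), while in KD3 it was −0.76 ± 0.44 (adjusted p = 0.132, same test). Neither passed the threshold, and in WT this was the 232nd lowest ratio of the 534. Without replicate A of the WT IP the WT ratio was −1.15 and passed (adjusted p = 0.0384), and without replicate A of the KD3 IP the KD3 ratio was −1.29 and passed (adjusted p = 0.0361, edgeR quasi-likelihood). In KD6, miR-210-5p was lower in IP, at −3.67 ± 0.77 (SE, adjusted p = 0.000275, edgeR quasi-likelihood, Benjamini-Hochberg). That value rests on 3 reads in IP and 64 in input and depends on the prior count of the fit. The plain ratio of these counts, each divided by the miRNA reads of its group, was 0.0534, with an exact 95% interval of 0.0107 to 0.163. In WT the same ratio was 0.649 (0.521 to 0.804), from 112 reads in IP and 375 in input. Both intervals pool the reads of a group's libraries and cover counting error only, not the spread between libraries. Without replicate C of the KD6 IP, which holds all 3 reads, the fitted ratio moved to −7.70, and input and IP libraries overlapped because replicate A of the input is also at 0.

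**Figure D2:**
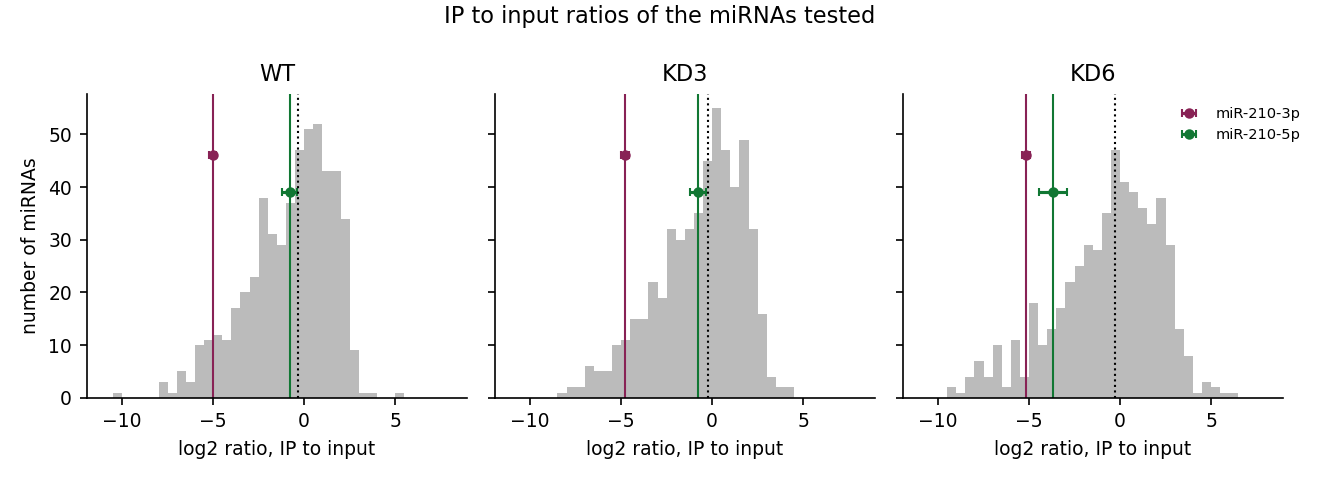
Histograms of the log2 ratio of IP to input for the 534 miRNAs tested, in WT, KD3 and KD6. Vertical lines with points and SE bars mark miR-210-3p (purple) and miR-210-5p (green), and the dotted line is the median of all miRNAs. miR-210-3p lies in the left tail in the 3 conditions, at −5.04, −4.79 and −5.15, while miR-210-5p lies near the median in WT and KD3 and at −3.67 in KD6.

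The 2 arms of miR-210 leave the same hairpin, so their ratio within a library needs no scaling between libraries. Of the miR-210 reads, the 5p arm made up 2.72%, 2.52% and 1.65% in replicates A, B and C of WT input, and 37.6%, 30.2% and 21.5% in WT IP. In KD3 it made up 1.06%, 1.45% and 0.76% of the input and 18.7%, 10.5% and 15.5% of the IP. In both conditions every IP library was above every input, and the group means were 2.30% ± 0.57 and 29.8% ± 8.08 in WT and 1.09% ± 0.34 and 14.9% ± 4.12 in KD3 (SD, n = 3). In KD6 the 5p arm made up 0%, 0.48% and 0.79% of the input and 0%, 0% and 2.75% of the IP. The 0 in replicate A of the KD6 input allows a share of up to 2.10%, and those in replicates A and B of the KD6 IP up to 6.67% and 9.09%. The KD6 IP libraries thus lie below every WT IP library even at those limits.

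The log2 ratio of 3p to 5p reads, with 0.5 added to each count, differed between IP and input by −3.33 on average over the 3 conditions (n = 9 libraries per side, p = 0.00025 when fractions were exchanged only within a condition in a two-sided exact permutation, which can give no smaller p). The 5p arm was thus 10.0-fold higher relative to the 3p arm after the IP. By condition the value was 18.1-fold in WT, 16.4-fold in KD3 and 3.39-fold in KD6, and in each the two-sided exact permutation gave p = 0.1, below which 3 against 3 libraries cannot go. The KD6 value depends on the 0.5 added, since 3 of its 6 libraries hold no 5p read. The p over the 3 conditions and that of KD6 also draw on the KD6 ratio of the 3p arm, which was already known when the members were chosen. Without KD6 the 5p arm was 17.2-fold higher relative to the 3p arm (exact permutation within condition, p = 0.005, again the smallest possible).

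**Figure D3:**
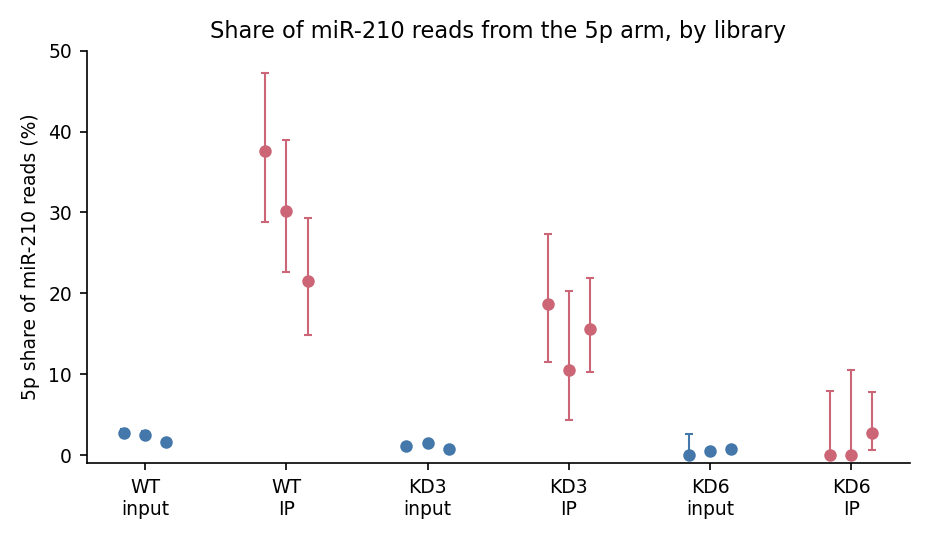
Share of miR-210 reads that come from the 5p arm in each library, in percent, inputs in blue and IP in red, with exact 95% binomial intervals as bars (counting error only). The share was at most 2.72% in WT input, 21.5% to 37.6% in WT IP, 10.5% to 18.7% in KD3 IP, and at most 2.75% in KD6 IP.

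Unequal retention of 2 arms was not rare among other hairpins. Both arms passed the filter on low counts for 139 hairpins, and the median size of the difference between their WT log2 ratios was 1.68. For 34 of the 139 it was at least 3. In miR-210 the difference, 3p minus 5p, was −4.24 in WT, the 11th most negative, −4.03 in KD3, the 10th, and −1.48 in KD6, the 41st. The 3 most negative differences in WT were those of miR-21a, miR-193a and let-7i. Their 3p arms rested on 0, 3.1 and 7 reads over the 3 WT IP libraries, against 822.1, 567.5 and 981.5 in input, while miR-210-3p rested on 269.3 reads in WT IP and 16203.8 in input. No fold is given for miR-21a-3p, which had no read in WT IP.

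**Figure D4:**
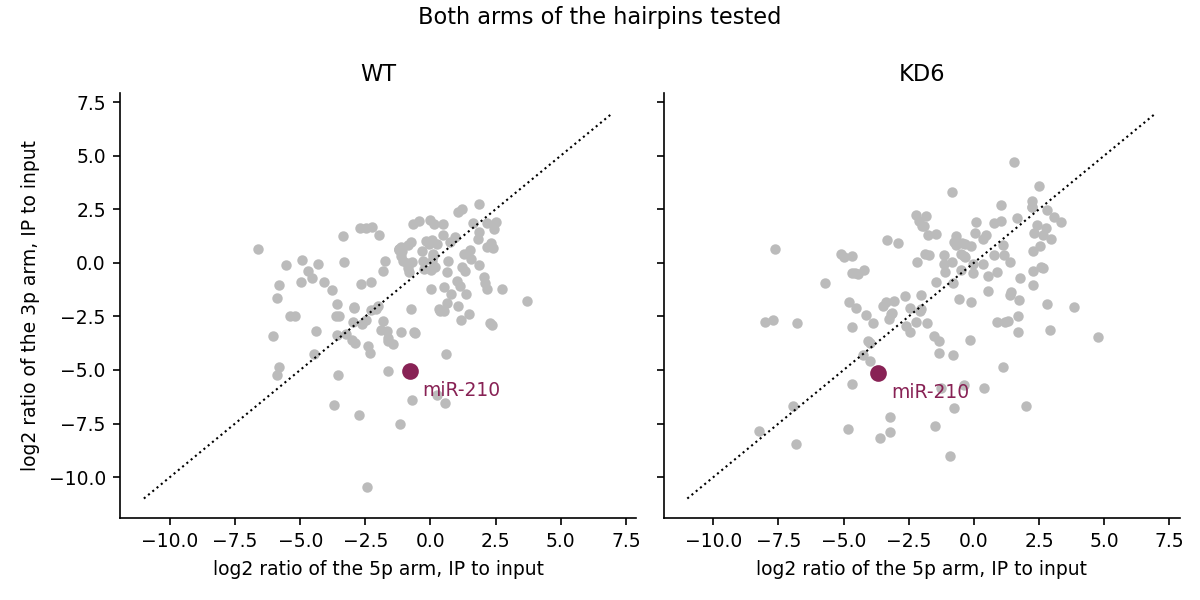
Fitted log2 ratio of IP to input of the 5p arm (horizontal) and of the 3p arm (vertical) for 139 hairpins with both arms tested, in WT and KD6. The dotted line marks equal ratios. miR-210 (purple) lies below the line, with a difference of −4.24 in WT and −1.48 in KD6, where its 5p arm rests on 3 IP reads.

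Whether the knockdown altered retention was tested as an interaction, the difference between 2 IP to input ratios. For miR-210-3p the change was 0.25 in KD3 against WT (approximate 95% interval −0.27 to 0.76, adjusted p = 0.997) and −0.11 in KD6 against WT (−0.63 to 0.41, adjusted p = 0.864, edgeR quasi-likelihood, Benjamini-Hochberg). In KD6 against KD3 it was −0.35 (−0.88 to 0.17, adjusted p = 0.464, same test). Both KD6 changes, and their p-values under any setting, draw on the KD6 ratio of the 3p arm, which was already known when the members were chosen. The medians of all miRNAs for these 3 changes were 0.14, 0.26 and 0.12. With total mapped reads as library size, the KD6 against WT change of miR-210-3p was −0.95 and passed (adjusted p = 0.0442, edgeR quasi-likelihood), with the median of all miRNAs at −0.56. With any 1 library left out, the KD6 against WT change lay between −0.69 and −0.31 and did not pass, so the −0.11 is the value nearest to 0. Relative to the median of all miRNAs it lay between −0.50 and −0.37 over the settings that kept every library.

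For miR-210-5p the change in retention was 0.04 ± 0.62 (SE) in KD3 against WT, with an approximate 95% interval of −1.17 to 1.25. In KD6 against WT it was −2.87 ± 0.91 (SE, adjusted p = 0.119, edgeR quasi-likelihood) and in KD6 against KD3 −2.91 ± 0.93 (adjusted p = 0.137, same test). Neither passed the threshold over all miRNAs. Of the 534, 1.12% passed in KD6 against WT and 0.187% in KD6 against KD3, while 0% passed for KD3 against WT. There, an unadjusted p below 0.05 was found for 15 (2.81%) in edgeR, and DESeq2 called 0. The KD6 changes of miR-210-5p passed without the filter on low counts (adjusted p = 0.0388 and 0.0378) and, when the KD6 IP lost its replicate C, at −6.92 and −6.74 (adjusted p = 0.0406 and 0.0320, edgeR quasi-likelihood). That replicate holds all reads of this arm in the group, so without it the KD6 IP counts are all 0 and the fitted size depends on the prior count.

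The input libraries give the level before the IP. The change in miR-210-3p was 0.26 ± 0.18 (SE, adjusted p = 0.702) in KD3 against WT, 0.05 ± 0.18 (adjusted p = 0.924) in KD6 against WT, and −0.21 ± 0.18 (adjusted p = 0.590) in KD6 against KD3 (edgeR quasi-likelihood, Benjamini-Hochberg). None passed, although on the TMM scale each KD3 input lay above every WT and KD6 input, and the sign of the KD6 against KD3 value turned with library size alone (0.10). The KD6 against WT value was 0.23 to 0.46 with any 1 library left out, 0.33 with RLE factors and 0.38 with library size alone, and it did not pass in any of these fits. Non-overlapping inputs were found for 37.5% of all miRNAs in KD3 against WT and for 23.4% in KD6 against KD3. Fitted on the 6 WT and KD3 inputs alone, the KD3 change was 0.40 and passed (adjusted p = 0.00594, edgeR quasi-likelihood), in a fit that called 74 miRNAs where the fit over 18 libraries called 0.

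For the passenger strand the inputs differed more. miR-210-5p was lower in KD6 than in WT input, by a log2 ratio of −1.83 ± 0.46 (SE, adjusted p = 0.0238, edgeR quasi-likelihood, Benjamini-Hochberg), or 3.57-fold. The libraries did not overlap with replicate A of the KD6 input taken at 0, but the 12.2 CPM that its 0 allows lies within the WT range. Only 5.06% of miRNAs passed in this comparison, 4.68% as lower, and non-overlapping libraries were found for 29.6%. The median of all miRNAs was −0.25, so the change relative to it was −1.58. The call was lost with each of the 6 libraries left out in turn, including replicate A of the KD6 input, without which the change was −1.59 (adjusted p = 0.0607, edgeR quasi-likelihood), and it was lost with library size alone (−1.49, adjusted p = 0.131). DESeq2 gave −1.77 (adjusted p = 0.0290). In KD3 against WT the change was −0.82 ± 0.39 (adjusted p = 0.579) and in KD6 against KD3 −1.01 ± 0.46 (adjusted p = 0.258, edgeR quasi-likelihood), and neither passed.

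The mean share of the 5p arm among miR-210 reads was ordered in the same way, without any scaling, when a count of 0 is taken as 0. In input the means were 2.30% ± 0.57 in WT, 1.09% ± 0.34 in KD3 and 0.42% ± 0.40 in KD6 (SD, n = 3). The KD3 and KD6 inputs overlapped, with replicate C at 0.76% and 0.79%. Replicate A of the KD6 input, at 0, does not fix the order of these groups either. In IP they were 29.8% in WT, 14.9% in KD3 and 0.92% in KD6. Neither knockdown overlapped with WT in either fraction, except that the 2.10% allowed by the 0 in replicate A of the KD6 input reaches into the WT input range. These 4 differences were compared after the values had been seen, and each reached p = 0.1 in an exact permutation, again the limit of this design. Arm shares of the other hairpins were not compared in this way, so how common such a separation is was not tested. The difference in IP was −28.9 percentage points for KD6 and −14.8 for KD3. The day of sampling and the preparation of each group cannot be told apart from the knockdown.

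The miRNAs whose levels most resembled those of miR-210-3p were other miRNAs depleted by the IP. Among 150 miRNAs with a mean of at least 100 CPM, the highest Pearson correlations of log2 CPM over the 18 libraries were with miR-30a-5p (0.995), miR-381-3p (0.993), miR-300-3p (0.993), miR-101a-3p (0.991) and miR-101b-3p (0.990). The libraries fall into IP and input, which all these values share. Over the same libraries the correlation of miR-210-3p with miR-210-5p was 0.353. These 5 sequences, with the seed in capitals, are shown because none has the seed of miR-210-3p and all are poorer in GC.
miR-30a-5p: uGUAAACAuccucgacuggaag
miR-381-3p: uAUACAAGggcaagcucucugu
miR-300-3p: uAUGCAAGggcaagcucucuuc
miR-101a-3p: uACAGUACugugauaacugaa
miR-101b-3p: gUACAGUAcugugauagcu

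Their GC content ranged from 33.3% to 50%, against 63.6% in miR-210-3p, and they had 5 or 6 uridines, against 5. In the order of WT ratios among miRNAs of at least 100 CPM, miR-210-3p was the 6th lowest of 151. Next below it were miR-300-3p (−5.04 ± 0.28 SE) and miR-30e-5p (−5.54 ± 0.29), and next above it miR-199b-5p (−4.98 ± 0.33) and miR-30a-5p (−4.91 ± 0.18). These neighbours, other than miR-30e-5p, lay within 1 SE of it.

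Once the group means were removed, the deviations of miR-210-3p over the 18 libraries correlated best with those of miR-181a-5p (0.688), miR-140-3p (0.615) and miR-199a-5p (0.601), and with those of miR-210-5p at 0.440. For miR-210-5p, the highest correlations of log2 CPM among all miRNAs tested were with miR-182-5p (0.893), a miRNA of the miR-183/96/182 cluster, miR-5113 (0.870) and miR-7068-3p (0.857). Mean levels of miR-182-5p were 1247, 976 and 564 CPM in WT, KD3 and KD6 input, and 967, 768 and 435 CPM in IP, so WT was highest and KD6 lowest in both fractions, as for miR-210-5p. The latter 2 miRNAs averaged 3.40 and 1.26 CPM over the 18 libraries, so their correlations rest on few reads. All libraries share one table and one scaling, and no p is given for such correlations.

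The retention of miRNAs was only loosely related to base composition. Across the 462 miRNAs with a sequence, which share libraries and are not independent, the Spearman correlation of the WT log2 ratio was 0.195 with GC content and 0.0854 with the percentage of uridine. Of the 462, 35 had a higher GC content than miR-210-3p. Among 80 miRNAs with a GC content of at least 60%, both arms of miR-210 included, the median WT ratio was 0.71, 31 were higher and 18 lower in IP by the test, and 3 had a ratio below that of miR-210-3p. Among 36 miRNAs of 22 nt with 5 uridines, the median was −0.90 and again 3 lay below miR-210-3p. For the 5p arm, 6 miRNAs of 22 nt had 2 uridines, itself included, with a median of −0.92 and a range of −1.25 to −0.24.

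To set miR-210 beside other miRNAs of the hypoxic response, a list of 18 mature miRNAs often named as hypoxia-responsive was used, from the miR-23, miR-24, miR-26, miR-27, miR-103/107 and miR-181 families together with miR-21a-5p, miR-155-5p, miR-199a-5p and miR-322-5p, the mouse counterpart of human miR-424. All 18 passed the filter. In WT, 14 were lower in IP (11 with the smallest library as TMM reference), 3 were higher and 1 did not pass, with a median log2 ratio of −2.17, against −0.35 for all miRNAs. In KD3 the counts were again 14, 3 and 1, with a median of −2.02, and in KD6 15 were lower and 3 higher, with a median of −1.87. Over all miRNAs, lower calls made up 40.4%, 39% and 37.6% and higher calls 26.2%, 28.1% and 31.1% in WT, KD3 and KD6, and the list is described only by these counts and medians. In WT the lower count was also 11 without replicate C of the input, and in KD3 without replicate A or C of the input.

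The 3 that were higher in WT were miR-155-5p, miR-26a-5p and miR-26b-5p. The highest ratio in each condition was that of miR-155-5p, a miRNA of inflammatory activation, at 2.37 ± 0.21 (SE) in WT, 2.56 ± 0.21 in KD3 and 2.82 ± 0.22 in KD6. Its mean level rose from 255 ± 18.5 to 1317 ± 130 CPM between WT input and WT IP (SD, n = 3). The lowest ratio was that of miR-181c-5p in WT (−5.87 ± 0.83 SE) and KD6 (−6.95 ± 0.93), and that of miR-181a-1-3p in KD3 (−5.37 ± 0.40). These 2 rested on 6 to 21 reads per IP group, against 184.2 to 280.0 for miR-210-3p.

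In the 3 interaction comparisons 0 of the list passed in edgeR. An unadjusted p below 0.05 in edgeR was found for 0 in KD3 against WT, 6 in KD6 against WT and 3 in KD6 against KD3. Over all 534 that share was 2.81% in KD3 against WT, and it was not computed for the KD6 comparisons. DESeq2 called 0, 1 and 1 of the list, and 0, 28 and 18 of all 534. Other edgeR settings did call list members, given here with the calls in either direction over all miRNAs tested in brackets. In KD6 against WT, 5 were lower with total mapped reads (51 of 564) and 3 were lower without the filter (13 of 1211). There, 1 was higher without replicate A of the KD6 input (9 of 585). When the KD6 IP lost replicate C, 4 were lower (25 of 579). In KD6 against KD3, 3 were lower without the filter (22 of 1211) and 1 was higher without replicate A of the KD6 input (15 of 585). Again 4 were lower when the KD6 IP lost replicate C (48 of 579). For miR-21a-5p, which inhibits several tumour suppressors, the change in KD6 against WT was 1.20 ± 0.32 (SE, adjusted p = 0.0592, edgeR quasi-likelihood, Benjamini-Hochberg). In the inputs, 1 passed, miR-24-3p, which was lower in KD6 than in KD3 at −0.65 ± 0.19 on the log2 scale (adjusted p = 0.0412, edgeR quasi-likelihood), in a comparison where 5.99% of all miRNAs passed, 4.68% as lower. This call was not stable. As lower, 0 of the list passed there with the replicate letter as a block, in a comparison whose same-letter libraries deviated together, and 0 passed in DESeq2, under each of the other settings that kept every library, and with 5 of the 6 libraries left out, all but replicate A of the KD6 input. Mean levels of miR-24-3p were 4250 ± 31.0 CPM in KD3 input and 2715 ± 449 CPM in KD6 input (SD, n = 3). Other settings also called list members in the inputs. In KD3 against WT, 3 were higher and 1 lower in the libraries compared alone (74 of 526). In KD6 against KD3, 2 were higher without the filter (24 of 1211) and 1 with total mapped reads (11 of 564). Without replicate A of the KD6 input, 2 were higher there (48 of 585). In KD6 against WT, 1 was higher in DESeq2 (28 of 534), without the filter (21 of 1211) and without that replicate (25 of 585). Of the 534 miRNAs, 0% passed in edgeR for KD3 against WT input, 46 (8.61%) with an unadjusted p below 0.05, and DESeq2 called 8.

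**Figure D5:**
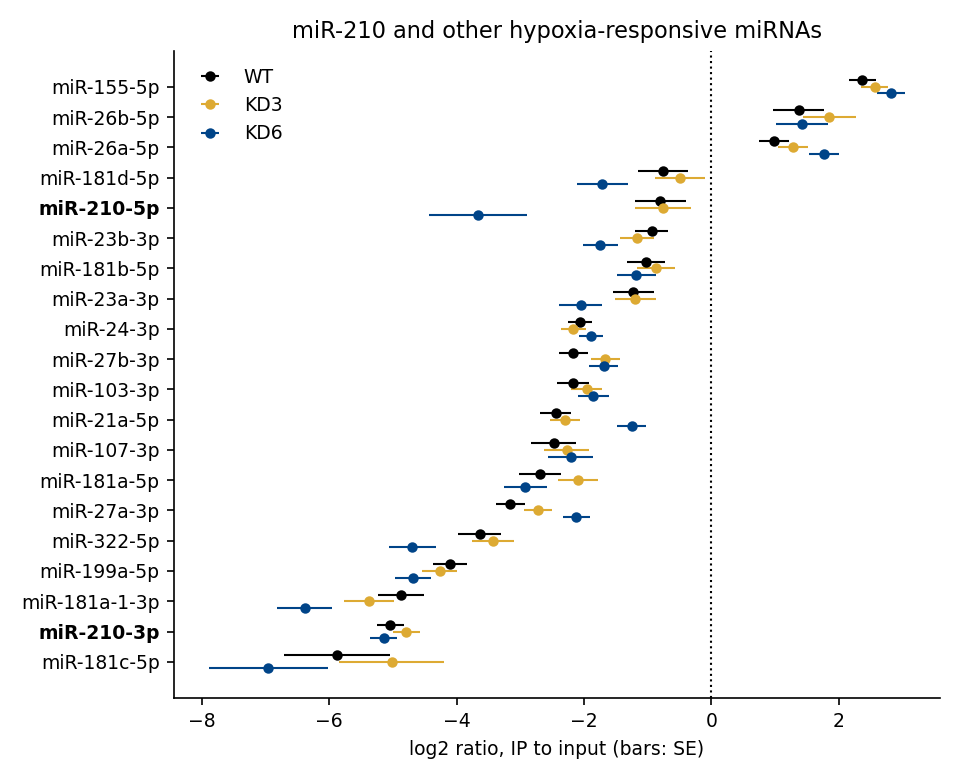
Log2 ratio of IP to input (points, with SE bars) in WT, KD3 and KD6 for both arms of miR-210, in bold, and 18 other hypoxia-responsive miRNAs, ordered by the WT value. miR-210-3p is the 2nd lowest of the 20 in WT, after miR-181c-5p, and miR-155-5p, miR-26a-5p and miR-26b-5p are the 3 above 0.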

How the data were processed

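Small RNAs of NIH/3T3 cells were sequenced as input or after Ψ-IP. The authors ran SeqImp (version not stated) with its default mouse settings, the mm10 assembly (also named in the submitters' processing notes) and Ensembl and miRBase annotation, and deposited estimated counts of mapped reads and of distinct read sequences per mature miRNA and locus, without normalization and with replicates apart. Fractions occurred in 47% of the non-zero values, so the deposited estimated counts were rounded before any test. Each miRNA was represented by its row with the largest total. The row of total mapped reads names no miRNA and was left out of library sizes and tests. Depth was 241109 to 15099781 mapped reads per library.

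The main test was that of edgeR 4.0.16 under R 4.3.3 (TMM, filterByExpr, glmQLFit, glmQLFTest) in 1 model of 6 group means over 18 libraries, which kept 534 miRNAs and both arms of miR-210. The threshold was an adjusted p of 0.05 (Benjamini-Hochberg). SEs were derived from the F statistic (log2 ratio over √F), and approximate 95% intervals are normal. Arm ratios were tested by exact permutation, two-sided, with 0.5 added to each count. The edgeR fit was also run on simulated counts with equal numbers of miRNAs raised and lowered in WT IP only. That setting does not test how unbalanced shifts between IP and input affect the scaling. The study itself used DESeq2, here version 1.42.0 as an alternative.

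Members, the list of hypoxia-responsive miRNAs and the tests were chosen with earlier results of these data known. Named beyond them are the miRNAs most correlated with each arm (5, 3 and 3), the pairs next to miR-210-3p in the order of WT ratios, the 3 hairpins with the most negative arm difference, and of the list the highest and lowest in each IP comparison and those past the threshold elsewhere; miR-26a-5p, miR-26b-5p and miR-21a-5p were named after their values were seen. Sequences came from RefSeq (GRCm38.p6, the assembly that mm10 also names), which held 1623 of the 1907 miRNAs.

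Pairing by replicate letter was checked over 197 miRNAs, correlating what remained after group means were subtracted. Every same-letter pair was above 0.1 only for KD3 and WT input (0.22 to 0.59) and for KD6 and KD3 input (0.24 to 0.32), and no label says what a letter shares.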

Additional observations from a re-analysis of the deposited data

How the results depend on the processing

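The ratio of miR-210-3p in IP kept its direction under every alternative run, and in WT and KD3 its side of the threshold, between −5.98 and −4.33 over the 3 conditions with every library kept. With libraries left out in turn it ranged from −5.09 to −4.23 (WT), −5.12 to −4.24 (KD3) and −5.71 to −4.80 (KD6). The arm difference of −3.33 ranged from −3.44 to −3.17 with libraries left out and was −4.11 without KD6, chosen after seeing the data. So was the smallest library as TMM reference. The cause of the following moves was not tested.

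With total mapped reads as library size, the changes in retention of miR-210-3p were −0.081 (KD3 against WT) and −0.95 (KD6 against WT, past), those of miR-210-5p −0.30 and −3.66 (past), and miR-210-5p was −1.09 in KD3 IP (past). The 5p change in KD3 against WT also turned to −0.026 with RLE factors, −0.031 with library size alone, −0.058 without a filter, −0.024 in DESeq2 and −0.19 with the smallest library as reference. The 3p input difference of KD6 and KD3 turned to 0.10 with either total mapped reads or library size alone, 0.0026 without a filter, 0.0012 in the libraries compared alone and 0.030 with the smallest library as reference. The 3p input change in KD3 against WT passed at 0.40 in the libraries compared alone. Without a filter the KD6 changes in 5p retention passed at −3.13 against WT and −3.07 against KD3. The lower 5p input in KD6 than in WT missed the threshold with library size alone (−1.49), total mapped reads (−1.57) and the smallest library as reference (−1.66).

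With libraries left out in turn, the 3p change in retention ranged from −0.10 to 0.11 (KD3 against WT), −0.69 to −0.31 (KD6 against WT) and −0.73 to −0.37 (KD6 against KD3), and the 3p input change from 0.33 to 0.44, 0.23 to 0.46 and −0.16 to 0.10. For the 5p arm, the IP ratio ranged from −1.15 to −0.21 (WT), −1.29 to −0.20 (KD3) and −7.70 to −2.64 (KD6), the change in retention from −0.52 to 0.20 (KD3 against WT), −6.92 to −2.56 (KD6 against WT) and −6.74 to −2.41 (KD6 against KD3), and the input change in KD6 against WT from −2.13 to −1.42, past the threshold in none. In the 6 KD6 libraries alone the 5p arm did not pass the filter, so its IP ratio could not be fitted.

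With the replicate letter as a block, the WT ratio of miR-210-3p was −5.03 and the 5p input change in KD6 against WT −1.69 (adjusted p = 0.0425, edgeR), and no call of either arm changed. Over all miRNAs, the 6 calls of changed retention in KD6 against WT became 0 with the block, RLE factors, library size alone, summed rows, the libraries compared alone or the smallest library as reference, 13 without a filter, 28 in DESeq2 and 51 with total mapped reads. The 1 call in KD6 against KD3 became 8 with total mapped reads, 13 with library size alone, 18 in DESeq2 and 22 without a filter. With 1 library left out these counts ranged from 0 to 25 and from 0 to 48, both highest without replicate C of the KD6 IP. In the inputs, with every library kept, the 27 calls in KD6 against WT became as few as 13 and the 32 in KD6 against KD3 as few as 9. With 1 library left out, the former became 0 without KD6 input C, 4 to 6 without KD6 input B or WT input A, B or C, and 25 without KD6 input A, and the latter 2 to 4, except 48 without KD6 input A. In the inputs the 0 calls in KD3 against WT became 74 in the libraries compared alone, 8 in DESeq2 and 5 without a filter. The 5p arm in KD6 rests on 3 IP reads of 11540668 miRNA reads in that group, against 51 of 10418364 in KD3 and 112 of 13729538 in WT, and KD6 input A is the 1 shallow library.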
